A study of Mus musculus with 69 samples.

Results

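The comparison described here set Fmr1 knockout (KO) against wild-type (WT) mice in a single kind of library: mRNA bound to ribosomes of Camk2a-Cre cells of the primary somatosensory cortex (S1). Its members are the 15 libraries whose names carry a Camk2a animal code and S1, of 69 libraries in the series, 7 from KO and 8 from WT mice. All of these mice were Camk2a-Cre with a homozygous HA-tagged Rpl22 allele (Rpl22HA/HA), and were young adults of postnatal day 70 to 100. Each library has an animal code of its own, so KO and WT are separate animals, and the labels give 3 males and 4 females among KO and 2 males and 6 females among WT. Fmr1 is on the X chromosome, and the labels do not give the zygosity of the KO females. S1 was dissected on both sides from a coronal slice, and the Camk2a promoter drives Cre in pyramidal neurons of many forebrain regions, so neighbouring regions that enter a dissection carry the tag too.

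FMRP, the protein made from Fmr1, is an RNA-binding protein that associates with polyribosomes and with the coding sequence of many long neuronal mRNAs, and its loss causes fragile X syndrome in people. Camk2a-Cre cells of the cortex are mainly excitatory pyramidal neurons, the cells that send the long-range output of S1. In RiboTag mice, Cre switches on an HA-tagged copy of the ribosomal protein RPL22, and pulling down the tag recovers mRNA on ribosomes of the Cre cells. A level in such a library is the share of a gene among ribosome-bound mRNAs, so more of the transcript and more ribosome loading of it cannot be told apart, nor can fewer cells of a type and less RNA per cell.

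The libraries held 27.64 to 47.92 M estimated counts. Levels are given as CPM, counts of a gene per M counts of its library, without correction for gene length. Excitatory markers were abundant in every library, with Slc17a7, the vesicular glutamate transporter, at 2142 to 2701 CPM and Camk2a itself at 5316 to 7323 CPM. Gad1, which makes GABA, lay at 15.0 to 32.8 CPM in 12 libraries. It lay at 489 and 536 CPM in the WT libraries C18 and C19 and at 361 CPM in the KO library C3, and Pvalb, the parvalbumin gene, was at 59.7 to 112.1 CPM there against 3.04 to 17.2 CPM elsewhere. C24, a WT library, is the only one of Batch 2, has the lowest total, the highest summed oligodendrocyte, vascular and choroid plexus markers and the lowest summed striatal markers of the 15. In the KO library C4 the TMM scaling factor was 0.91, against 0.99 to 1.04 in the others. C16, labelled male, held 0.81 CPM of 4 Y-linked genes and 10.6 CPM of Xist, and C23, labelled female, held 58.63 CPM of those Y-linked genes and 0.211 CPM of Xist, so these WT libraries go against their labelled sex. Counts and calls that moved with these libraries are given with and without them below.

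Of 17634 genes in the table, 15691 passed the filter on low counts and were tested with edgeR's quasi-likelihood test with the labelled sex as a covariate. The p-values measure the spread between animals. A gene was called at a Benjamini-Hochberg adjusted p under 0.05 over all genes tested, which is the source of the adjusted p given for each gene. In KO libraries 313 genes were called higher, 1.99% of those tested, and 328 lower, 2.09%, which makes 641 or 4.09%. Most of these differences were small, with 425 called genes under 0.5 in absolute log2 fold change and 48 at 1 or more. The median log2 fold change of all genes tested was -0.001. For 248 genes, 1.58% of those tested, the CPM ranges of KO and WT did not overlap, and 217 of these were called. In all 31 alternative fits, the 641 genes kept their sign, and 95 of them, 29 higher and 66 lower, were called in every one. The count itself moved with the libraries entered, from 253 without C16 to 1634 without C24, and it was 299 without C3, C18 and C19. The 1634 were 856 higher and 778 lower, and the 299 were 116 higher and 183 lower. Counts of list members given below for either fit stand beside these numbers, not beside the shares of the main fit. Of those 299 genes, 267 were among the 641. Without C16 and C23, whose sex goes against the label, 103 genes were called, all among the 641, and only C15 was left as a WT male. With sex taken from the Y-linked genes, 771 were called. Without C3, C18, C19 and C24 there were 810, of which 472 were among the 641.

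Fmr1 (ENSMUSG00000000838, chromosome X, 68678541 to 68717963 on the plus strand of mm10) checks the genotype labels. WT libraries held 66.1 to 85.5 CPM with a median of 73.7, and KO libraries 6.90 to 9.50 CPM with a median of 8.18. All 7 KO libraries lay far below the lowest WT library, and none was at 0. KO libraries labelled female lay at 8.18 to 9.50 CPM and those labelled male at 6.90 to 7.68 CPM. The log2 fold change was -3.15 (SE 0.0750, with adjusted p = 3.95e-14). For every called gene named below, the WT mean was passed in the direction given by 7 of 7 KO libraries unless another number stands beside it.

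Cell cycle regulators changed in both directions. Cyclins drive cyclin-dependent kinases, and CIP/KIP inhibitors block them. In neurons that no longer divide, these proteins have other roles, among them in differentiation and the cytoskeleton. Of 32 listed cyclins, kinases and inhibitors that were tested, 4 were called higher and 3 lower, beside 1.99% and 2.09% of all genes, and 17 of 32 had a positive log2 fold change. Cdkn1c (p57, an imprinted inhibitor of this family, ENSMUSG00000037664, chromosome 7, 143458339 to 143461050) had the largest rise of any called gene with a mean of at least 5 CPM. WT libraries held 2.84 to 5.02 CPM with a median of 3.97, and KO libraries 7.75 to 11.3 CPM with a median of 9.64. The groups did not overlap, and the log2 fold change was 1.27 (SE 0.120, with adjusted p = 3.15e-05). Its call held in all 31 alternatives, with a log2 fold change between 1.22 and 1.34. On the annotation, 30.7% of its exonic bases overlap Gm44732 on the other strand, and whether the counting used strand is not given in the sources used here.

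The D-type cyclins moved the other way. Ccnd2 (ENSMUSG00000000184, chromosome 6, 127125162 to 127152193) lay at 57.1 to 95.5 CPM with a median of 80.0 in WT and at 35.2 to 53.6 CPM with a median of 49.5 in KO libraries. The groups did not overlap, and the log2 fold change was -0.79 (SE 0.125, with adjusted p = 0.0031). Ccnd1 had a lowest, median and highest value of 41.2, 46.8 and 76.7 CPM in WT and 27.7, 33.0 and 35.6 CPM in KO, also without overlap, with a log2 fold change of -0.75 (SE 0.13, with adjusted p = 0.0061). Of its exonic bases, 23.4% overlap another gene. The third D-type cyclin, Ccnd3, did not pass (log2 fold change -0.00, adjusted p = 0.992). Cdk18, a kinase of the PCTAIRE group, held 12.5 to 17.1 CPM with a median of 15.2 in WT and 3.98 to 10.1 CPM with a median of 8.16 in KO, without overlap, and fell with a log2 fold change of -1.02 (SE 0.158, with adjusted p = 0.0029).

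Cdkn1b (p27), the inhibitor most like Cdkn1c in role, rose less. Its lowest, median and highest values were 37.8, 39.0 and 41.8 CPM in WT and 38.4, 52.4 and 59.8 CPM in KO. In Cdkn1b, 6 of 7 KO libraries lay above the WT mean and C14 lay within the WT range. The log2 fold change was 0.37 (SE 0.0781, with adjusted p = 0.0152). Ccne2, an E-type cyclin, rose from a median of 3.39 to 4.60 CPM (log2 fold change 0.45, adjusted p = 0.0327), a call that ended without each of C5, C6, C7, C14, C15, C16, C19, C20 or C23 (adjusted p up to 0.0891). Without C3, C18 and C19 the list had 2 higher and 3 lower calls, beside 116 and 183 over all genes. Without C24 it had 5 and 4, beside 856 and 778. Ccnd1 missed the threshold in the fit of all 4 Camk2a groups (adjusted p = 0.0549).

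The next genes were picked by the size of their p or fold and belong to no common list. Of 36 listed actin and WAVE regulators, edgeR called 0, with 3 at an unadjusted p under 0.05 and a median of -0.03. DESeq2 called 1 higher and 0 lower and limma-voom called 0 and 0. Ccn4 (also called Wisp1, a secreted matricellular protein downstream of WNT signalling, ENSMUSG00000005124, chromosome 15, 66891320 to 66923201) lay at 5.00 to 8.90 CPM with a median of 7.07 in WT and 2.28 to 3.55 CPM with a median of 2.66 in KO libraries. Every KO library was below every WT library, and the log2 fold change was -1.38 (SE 0.123, with adjusted p = 1.96e-05). Tns1, tensin 1, links integrins to actin. It held 11.2 to 24.0 CPM with a median of 16.01 in WT and 4.17 to 8.38 CPM with a median of 5.66 in KO, again without overlap, with a log2 fold change of -1.44 (SE 0.172, with adjusted p = 6.38e-04). Nedd9, a scaffold of integrin signalling, lay at 5.25 to 8.72 CPM with a median of 6.73 in WT against 2.70 to 3.97 CPM with a median of 3.67 in KO. That was a log2 fold change of -0.94 (SE 0.121, with adjusted p = 0.0010) without overlap.

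Vill, a villin-like actin-binding protein, had the smallest p after Fmr1. Its lowest, median and highest values were 4.63, 4.95 and 6.04 CPM in WT and 1.58, 1.93 and 2.56 CPM in KO, a log2 fold change of -1.31 (SE 0.111, with adjusted p = 1.20e-05). Pkp4, a plakophilin of cell junctions and the most abundant of these genes, held 153 to 184 CPM with a median of 159 in WT and 98.6 to 138 CPM with a median of 115 in KO libraries. The groups did not overlap although the log2 fold change was only -0.52 (adjusted p = 0.0010). Bcam, a laminin receptor, fell with a log2 fold change of -1.42 (SE 0.184, with adjusted p = 0.0010), from a WT median of 3.49 to a KO median of 1.38 CPM. Serpine2, a secreted inhibitor of thrombin-like proteases, had values of 37.2, 39.2 and 45.7 CPM in WT and 21.8, 26.9 and 31.4 CPM in KO and fell with a log2 fold change of -0.56 (SE 0.0835, with adjusted p = 0.0020). Nkain1, a partner of the sodium pump, fell from a median of 6.10 to 3.81 CPM (log2 fold change -0.70, adjusted p = 0.0010). For Vill, Bcam, Serpine2 and Nkain1 too, every KO library lay below every WT library, and the 8 genes from Ccn4 to Nkain1 were each called in all 31 alternatives. Abi3bp, an extracellular matrix protein, fell with a log2 fold change of -1.19 (SE 0.260, with adjusted p = 0.0214), but C24 was the highest WT library at 21.75 CPM and the call ended without C5, C7 or C16 (adjusted p up to 0.0589).

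**Figure D1:**
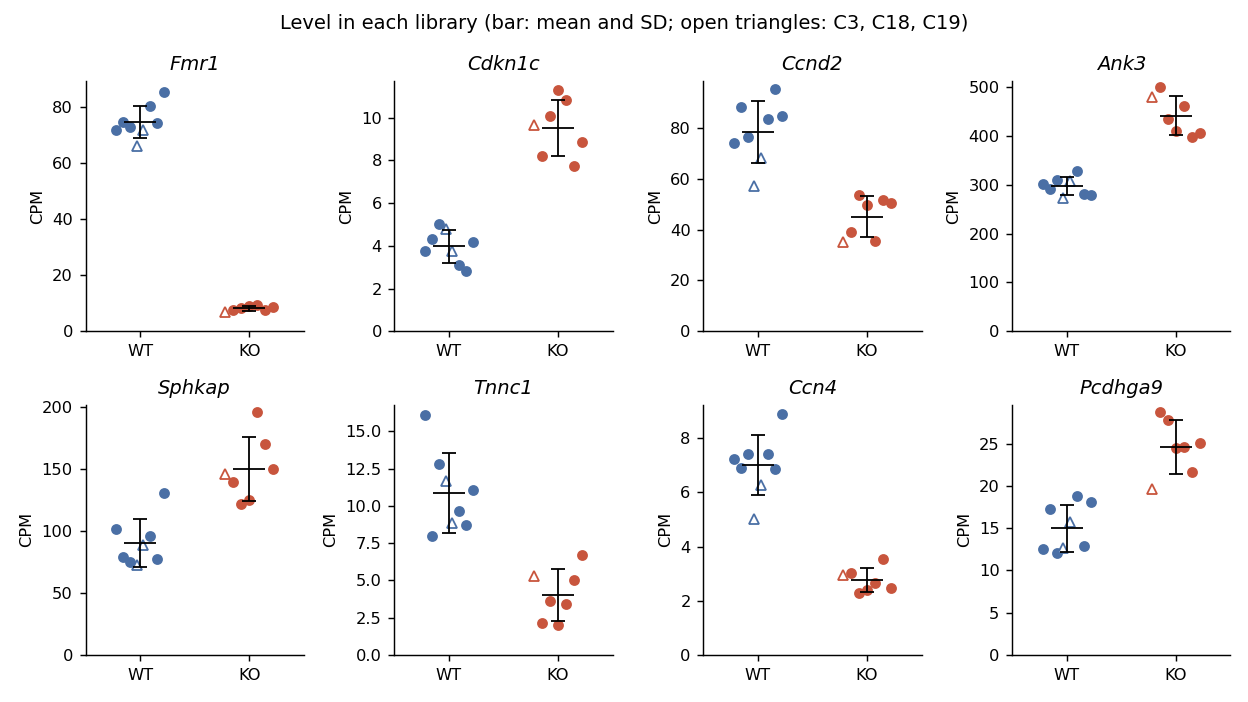
CPM of 8 genes in each WT (blue) and KO (red) library, with the group mean and SD as black bars and C3, C18 and C19 as open triangles; every vertical axis starts at 0. KO and WT do not overlap for 7 of the genes, and for Sphkap 1 WT library, C24 at 130.6 CPM, lies among the KO libraries.

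Of the sarcomere genes tested, 8 fell in KO. These genes encode the troponins, tropomyosins and thick filament proteins of muscle, and several are also transcribed at low levels in subsets of cortical neurons. Of 35 listed genes, 21 were in the table and 18 were tested, of which 8 were called lower and 0 higher, and 15 had a negative log2 fold change, with a median of -0.61. Over all genes tested, 2.09% were called lower and 1.99% higher. This list, like the others, was chosen with earlier results of these data known, so a high count may be partly built into the choice. Without C3, C18 and C19 the median of 19 tested was -0.23, with 7 called lower, beside 183 over all genes. By limma-voom the median was -0.45. Tnnc1 (cardiac and slow troponin C, ENSMUSG00000091898, chromosome 14, 31208312 to 31211729) lay at 7.97 to 16.1 CPM with a median of 10.4 in WT and 2.02 to 6.72 CPM with a median of 3.60 in KO libraries, without overlap, with a log2 fold change of -1.42 (SE 0.247, with adjusted p = 0.0067). Tnnt2, cardiac troponin T, had lowest, median and highest values of 4.70, 6.25 and 10.2 CPM in WT and 2.12, 3.38 and 4.16 CPM in KO. These did not overlap either, and the log2 fold change was -1.06 (SE 0.175, with adjusted p = 0.0037).

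Tcap, the titin cap protein, held 4.59 to 16.3 CPM with a median of 12.6 in WT libraries and 3.65 to 6.17 CPM with a median of 4.76 in KO, a log2 fold change of -1.28 (SE 0.199, with adjusted p = 0.0029). Here C24 was the WT library within the KO range, and without it the adjusted p was 1.26e-05. Mybpc3, cardiac myosin-binding protein C, fell with a log2 fold change of -1.09 (SE 0.155, with adjusted p = 0.0016), and Myh7, the slow myosin heavy chain, with a log2 fold change of -0.61 (SE 0.119, with adjusted p = 0.0105). Tpm1, a tropomyosin that is also widely expressed outside muscle, was the most abundant member and the one with the smallest called change. It lay at 265 to 309 CPM with a median of 282 in WT and at 206 to 260.1 CPM with a median of 245 in KO, which did not overlap (log2 fold change -0.23, SE 0.045, adjusted p = 0.0117). Tnnt1 (log2 fold change -0.91, adjusted p = 0.0313) and Tpm2 (log2 fold change -1.29, adjusted p = 0.0492) stood close to the threshold. Their calls ended with most single libraries left out, Tnnt1 without C5, C6, C7, C12, C15, C16, C18 or C19 (adjusted p up to 0.0907) and Tpm2 with each library but C3 and C24 (adjusted p up to 0.109). Skeletal actin Acta1 (0.02, adjusted p = 0.930) and alpha-actinin 2, Actn2 (0.08, adjusted p = 0.772), did not pass. Among markers of other tissue, the hippocampal and claustrum list was low in KO in the same libraries: 0 of 10 tested had a positive log2 fold change and the median was -0.49, with a summed level of 143.5 to 302.4 CPM in KO and 230.2 to 402 CPM in WT. Of this list edgeR called 0, with 3 at an unadjusted p under 0.05, and DESeq2 and limma-voom each called 1 lower. The part of this list in the sarcomere result, or in other genes called lower, was not tested.

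Commonly cited FMRP target mRNAs leaned higher in KO. These are mRNAs that FMRP binds in brain, many of which encode very large synaptic and scaffold proteins. Of 80 tested, 8 were called higher and 1 lower, 63 had a positive log2 fold change and the median was 0.12, against 49.7% positive and a median of -0.001 over all genes tested. Of all genes tested, 1.99% were called higher and 2.09% lower. Without the KO library C4 the list's median was 0.07 with 59 of 80 positive, and 8 were again higher and 1 lower. The longest of 5 classes of all genes by exon length had a median of 0.07, with 4.11% called higher. Without C4 that class stood at 0.04 and 4.02%. The part of length in the values of this list was not tested. Ank3 (ankyrin G, which organizes the axon initial segment, ENSMUSG00000069601, chromosome 10, 69398773 to 70027438) was the clearest. WT libraries held 274 to 329 CPM with a median of 297, KO libraries held 398 to 502 CPM with a median of 434, and the groups were apart. The log2 fold change was 0.57 (SE 0.0657, with adjusted p = 3.82e-04), called in all 31 alternatives. Its relative Ank2, ankyrin B, lay at 403, 463 and 532 CPM in WT and 544, 590.3 and 745 CPM in KO, a log2 fold change of 0.38 (SE 0.0879, with adjusted p = 0.0244) without overlap.

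Pclo, piccolo, a scaffold of the presynaptic active zone, lay at 212 to 326 CPM with a median of 254 in WT and 327 to 435 CPM with a median of 352 in KO. The lowest KO library lay just above the highest WT library, and the log2 fold change was 0.53 (SE 0.104, with adjusted p = 0.0117). Herc1, a giant ubiquitin ligase, had values of 177, 202 and 263 CPM in WT and 252, 279 and 293 CPM in KO. C24 was the WT library among the KO values, and the log2 fold change was 0.43 (SE 0.0870, with adjusted p = 0.0132). The 1 member called lower was Mbp, myelin basic protein, which is also an oligodendrocyte marker (log2 fold change -0.44, adjusted p = 0.0306). WT libraries held 171.1 to 280 CPM of it, with C24 the highest, and its call ended without C6, C7, C15, C16 or C23 (adjusted p up to 0.0751). The members Arc (log2 fold change -0.47, adjusted p = 0.427) and Ank1 (-0.40, adjusted p = 0.676) did not pass. Without C3, C18 and C19 the list had 4 higher and 0 lower calls with 64 of 80 positive, beside 116 and 183 calls over all genes. Without C24 it had 20 and 1, beside 856 and 778. Among the named members, Ank2 no longer passed without C7, C15 or C16 (adjusted p up to 0.0751).

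The mTOR pathway, which senses nutrients and growth factors and sets the rate of translation, has been studied as a pathway released in Fmr1 KO neurons. Of 29 tested members, 5 were called higher and 0 lower, beside 1.99% and 2.09% of all genes, while 18 were positive and the median was 0.06. Without C24, 8 were higher and 1 lower, beside 856 and 778 over all genes. Without C3, C18 and C19 only Rptor was higher, beside 116 over all genes. Rptor, the scaffold of mTOR complex 1, which is also on the FMRP list, lay at 96.4 to 111 CPM with a median of 103 in WT and 113 to 142 CPM with a median of 127 in KO libraries. The groups did not overlap, and the log2 fold change was 0.32 (SE 0.0607, with adjusted p = 0.0092). Akt1s1 (PRAS40), an inhibitor bound by Rptor, stood at a log2 fold change of 0.26 (adjusted p = 0.0146), with 6 of 7 KO libraries above the WT mean. The stress-induced mTOR inhibitor Sesn1 (log2 fold change 0.36, adjusted p = 0.0250) and the S6 kinase Rps6kb2 (log2 fold change 0.36, adjusted p = 0.0287, 6 of 7) were also called. The called members named here include activators and inhibitors of the pathway. The kinase Mtor itself did not pass (0.20, adjusted p = 0.0961). Rptor was called without C3, C18 and C19 (adjusted p = 0.0400), whereas Akt1s1 (0.0676), Sesn1 (0.0872) and Rps6kb2 (0.0884) were not. Left-out single libraries ended the calls of Akt1s1 (C7), Sesn1 (C5, C6, C15, C16 or C23) and Rps6kb2 (C5, C6, C7, C16, C19, C20 or C23), with adjusted p up to 0.0760.

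Cyclic AMP is made by adenylyl cyclases and acts through protein kinase A and through EPAC proteins. Of 44 tested genes of this signalling, 3 were called higher and 0 lower, beside 1.99% and 2.09% of all genes, and 32 were positive with a median of 0.04. Without C24, 6 were higher, beside 856 over all genes, and without C3, C18 and C19, 1 was, beside 116. Sphkap, which anchors protein kinase A near the endoplasmic reticulum in neurons (ENSMUSG00000026163, chromosome 1, 83254139 to 83408200), had the largest change. WT libraries held 72.9 to 131 CPM with a median of 83.5 and KO libraries 122 to 196 CPM with a median of 146. The WT library C24 lay among the KO values, the other 7 below all of them, and the log2 fold change was 0.77 (SE 0.137, with adjusted p = 0.0070). Akap6, another anchor of protein kinase A, had values of 238, 257 and 278 CPM in WT and 293, 315 and 381 CPM in KO, without overlap. Its log2 fold change was 0.34 (SE 0.0732, with adjusted p = 0.0187), and the call ended without C16 (adjusted p = 0.0595). The cyclase Adcy9 stood close to the threshold (log2 fold change 0.41, adjusted p = 0.0440), and its call ended without C2, C5, C6, C7, C15, C16, C18, C19 or C23 (adjusted p up to 0.116). Rapgef4, which encodes EPAC2, the protein named in the study's title, lay at 214 to 261 CPM with a median of 232 in WT and at 224 to 309 CPM with a median of 263 in KO. The groups overlapped, 6 of 7 KO libraries were above the WT mean, and the gene did not pass in edgeR (log2 fold change 0.20, SE 0.0579, adjusted p = 0.0547). DESeq2 called it (adjusted p = 0.0148) and limma-voom did not (0.0522). It also passed in edgeR without C4 (adjusted p = 0.0327), without C24 (0.0457), without both (0.0190), without the sex term (0.0326), with the PV (0.0240) or striatal score (0.0435) as a covariate and in the fit of all 4 Camk2a groups (0.0464). In all, only 8 of the 31 alternatives called Rapgef4. It missed in edgeR without C3, C18 and C19 (0.0884) and without C16 and C23 (0.224). With total count scaling (0.105), RLE size factors (0.0555) or sex by Y-linked genes (0.0514) it missed too. Rgs16, which switches off G protein signals, had values of 6.15, 8.63 and 12.0 CPM in WT and 2.15, 5.11 and 6.04 CPM in KO, without overlap, and a log2 fold change of -0.98 (SE 0.192, with adjusted p = 0.0110).

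Clustered protocadherins, the cell surface proteins that give neurons of the cortex their individual adhesion codes, leaned higher in KO. All 22 gamma protocadherins were tested, 7 were called higher and 0 lower, and 21 were positive with a median of 0.46. Of 35 alpha and beta genes, 5 were called higher and 0 lower, and 33 were positive with a median of 0.28. The shares over all genes tested were 1.99% higher and 2.09% lower. Pcdhga9 lay at 12.1 to 18.8 CPM with a median of 14.3 in WT and 19.6 to 28.8 CPM with a median of 24.6 in KO libraries, without overlap, a log2 fold change of 0.74 (SE 0.124, with adjusted p = 0.0042). Pcdhgb6 (log2 fold change 0.66, adjusted p = 0.0077) and Pcdhgb7 (log2 fold change 0.69, adjusted p = 0.0106) were also apart. The member of opposite sign was Pcdhgc4, a C-type isoform, with means of 247.9 CPM in WT and 223.2 CPM in KO (log2 fold change -0.14, adjusted p = 0.172). Gamma genes share their constant exons and alpha genes share theirs, so that their counts depend on how reads were divided. Beta genes consist of single exons of their own. Of them, Pcdhb13 held 5.03, 6.40 and 7.56 CPM in WT and 7.17, 8.95 and 13.3 CPM in KO (log2 fold change 0.62, SE 0.135, adjusted p = 0.0187) and Pcdhb6 held 1.77, 2.06 and 2.32 CPM in WT and 2.59, 2.65 and 3.65 CPM in KO (log2 fold change 0.50, SE 0.117, adjusted p = 0.0258). The call of Pcdhb13 ended without C15 (adjusted p = 0.0511) and that of Pcdhb6 without C5, C7, C15 or C16 (adjusted p up to 0.0749). Without C3, C18 and C19 there were 4 called gamma genes, beside 299 called over all genes. Without C24 there were 13 higher and 1 lower, beside 856 and 778.

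Synaptic and channel lists are set beside the 1.99% of all genes called higher and the 2.09% called lower. Among 55 genes of glutamate receptors and the postsynaptic density, edgeR called 0, DESeq2 3 higher and 1 lower and limma-voom 0, with 11 at an unadjusted p under 0.05. Among 29 genes of the GABA synapse, edgeR, DESeq2 and limma-voom each called 0, with 7 at an unadjusted p under 0.05 in edgeR. Of 71 potassium channel genes, 1 was called higher and 2 lower. Kcns2, a modifier subunit of Kv2 channels, had values of 37.4, 38.6 and 43.9 CPM in WT and 45.6, 52.2 and 63.0 CPM in KO, without overlap, and rose with a log2 fold change of 0.44 (SE 0.0771, with adjusted p = 0.0057). Kcnmb4, the neuronal beta subunit of the BK channel, held 52.3, 59.1 and 64.5 CPM in WT and 35.1, 48.6 and 51.9 CPM in KO and fell with a log2 fold change of -0.34 (SE 0.0645, with adjusted p = 0.0086), again without overlap. FMRP itself is known to bind this subunit. On the annotation, 31.5% of its exonic bases overlap antisense transcripts. Of 49 sodium, calcium and HCN channel genes, 2 were called higher, among them the calcium channel beta subunit Cacnb4 (log2 fold change 0.30, adjusted p = 0.0216), which lost its call without C5, C6, C7 or C16 (adjusted p up to 0.0613). In the list of synaptic adhesion organizers, 2 of 59 were higher and 0 lower. Tenm1, a teneurin on the X chromosome, lay at 16.1 to 22.0 CPM with a median of 18.5 in WT and 22.6 to 30.6 CPM with a median of 26.5 in KO, apart, with a log2 fold change of 0.54 (SE 0.0813, with adjusted p = 0.0023). The ephrin receptor Epha8 was the 1 of 69 guidance genes called, with values of 10.5, 13.6 and 16.02 CPM in WT and 5.79, 7.52 and 10.3 CPM in KO and a log2 fold change of -0.74 (SE 0.114, with adjusted p = 0.0028). Without C24 these counts were larger, in a fit that called 856 genes higher and 778 lower over all genes. Among glutamate receptor and postsynaptic genes 4 were then higher, among GABA genes 1. Potassium channels had 5 higher and 4 lower, sodium, calcium and HCN channels 4 and 3, adhesion organizers 5 and 1 and guidance genes 3 and 3.

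Activity-regulated genes, whose transcription rises within minutes to hours of neuronal firing, leaned lower in KO. Of 42 tested, 3 were called lower and 0 higher, beside 2.09% and 1.99% of all genes, 35 were negative and the median was -0.27. Jun (ENSMUSG00000052684, chromosome 4, 95049034 to 95052222), a subunit of the AP-1 transcription factor, lay at 32.1 to 61.0 CPM with a median of 50.1 in WT and 24.4 to 37.8 CPM with a median of 30.7 in KO libraries, and only the WT library C24 lay within the KO range. The log2 fold change was -0.64 (SE 0.120, with adjusted p = 0.0091). Egr2, an immediate early zinc finger factor, had the largest fall after Fmr1 among called genes of at least 5 CPM, at 8.6, 20.1 and 42.2 CPM in WT and 4.21, 6.82 and 12.7 CPM in KO. Its spread in WT was wide, with C2 and C18 within the KO range, and the log2 fold change was -1.52 (SE 0.356, with adjusted p = 0.0313). Gadd45b, linked to activity-dependent DNA demethylation, stood at a log2 fold change of -0.66 (adjusted p = 0.0497). The calls of Egr2 (without C5, C6, C7, C15, C16 or C23, adjusted p up to 0.0749) and of Gadd45b (without C2, C3, C4, C5, C6, C7, C14, C15, C16 or C23, up to 0.109) ended with single libraries left out. Better known members did not pass: Fos at a log2 fold change of -0.29 (adjusted p = 0.497), Arc at -0.47 (adjusted p = 0.427), Npas4 at -0.02 (adjusted p = 0.982) and Bdnf at -0.26 (adjusted p = 0.648). Without C3, C18 and C19, 3 members were lower, beside 183 over all genes, and 39 of 42 were negative, with a median of -0.38. Without C24, 5 were lower, beside 778 over all genes, and 31 of 42 were negative, with a median of -0.17. Ddit3 (CHOP), a factor of the integrated stress response, held 8.79, 15.2 and 17.3 CPM in WT and 4.53, 8.78 and 12.3 CPM in KO and fell with a log2 fold change of -0.76 (SE 0.167, with adjusted p = 0.0207). C24 was its lowest WT library, and the call ended without C5, C6, C7, C15 or C16 (adjusted p up to 0.0539).

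**Figure D2:**
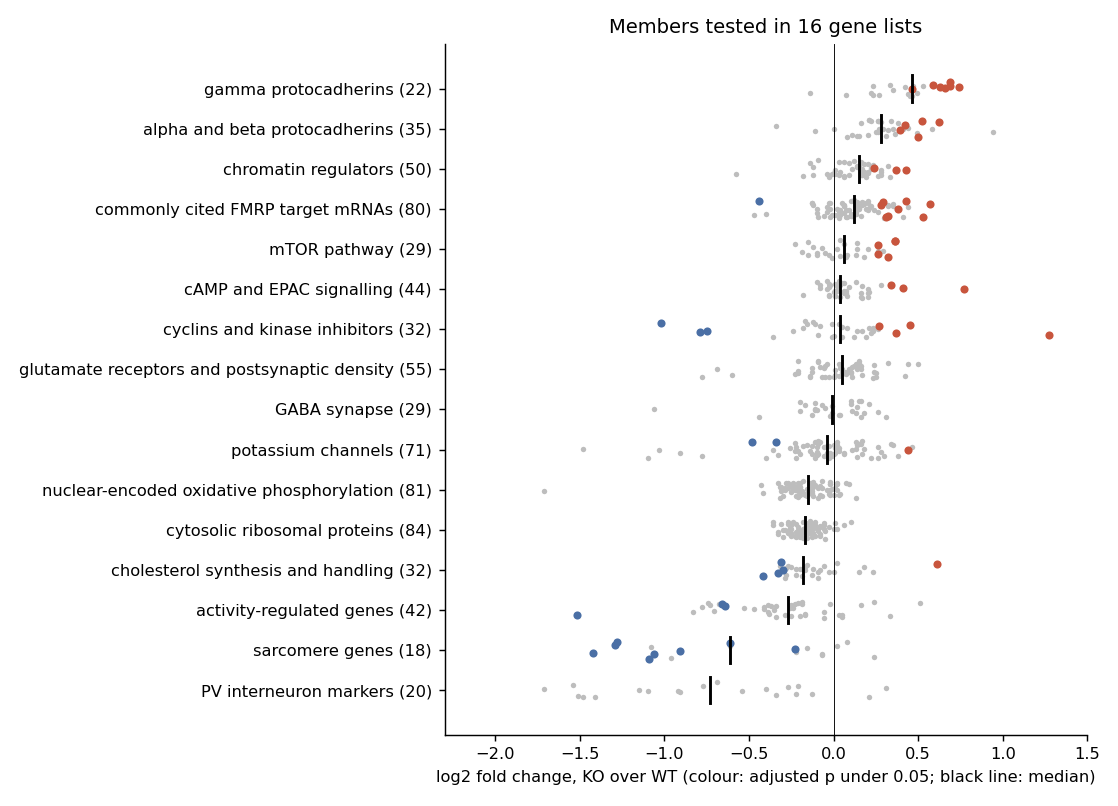
Log2 fold change, KO over WT, of every tested member of 16 gene lists (number tested in parentheses); coloured points passed the test, grey points did not, and the black line is the list's median. Most protocadherins lie to the right of 0 and most sarcomere genes to the left, and the PV markers, of which 0 passed, have the lowest median at -0.73.

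Genes of cholesterol synthesis and handling leaned lower. Neurons make sterols through the mevalonate pathway, whose genes are switched on together by SREBP2. Of 32 tested, 4 were called lower and 1 higher, beside 2.09% and 1.99% of all genes, 26 were negative and the median was -0.18. Among those lower were Fdps, which makes farnesyl diphosphate, Sqle, the squalene epoxidase, and Cyp51, which demethylates lanosterol. Cyp51 (ENSMUSG00000001467, chromosome 5, 4081145 to 4104746) lay at 34.0 to 43.3 CPM with a median of 38.6 in WT and 26.3 to 34.4 CPM with a median of 30.6 in KO libraries. C12 and C14 of KO reached into the WT range, and the log2 fold change was -0.33 (SE 0.0771, with adjusted p = 0.0246). The log2 fold changes were -0.42 for Fdps (adjusted p = 0.0245) and -0.30 for Sqle (adjusted p = 0.0334). C24 was the lowest WT library for Fdps, and 26.7% of the exonic bases of Fdps overlap another transcript. Abca1, the transporter that exports cholesterol from cells, was the member called higher, with 6 of 7 KO libraries above the WT mean (log2 fold change 0.61, adjusted p = 0.0415).

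No cholesterol gene was called by edgeR without C3, C18 and C19 (0 of 32, with 15 at an unadjusted p under 0.05, 26 negative and a median of -0.16), in a fit that called 299 genes. Without C24, 11 were lower and 1 higher, beside 778 and 856 over all genes. Single libraries ended the calls of Cyp51 (C5, C6 or C7, adjusted p up to 0.0648), Fdps (C5, C6, C7 or C16, up to 0.0722) and Sqle (C2, C5, C6, C7, C16, C18 or C19, up to 0.0948). Abca1 passed without C12, C14 or C24 and missed the threshold without any other single library (adjusted p up to 0.114). The promoters are shown for a called member, Cyp51, and for Hmgcs1, which opens the pathway and did not pass (-0.09, adjusted p = 0.429). RefSeq promoter windows on GRCm38.p6, from 250 bases before to 50 after a start, exist in the table used for 23 of the 32 genes. The motif CCAAT, the box bound by NF-Y, was searched on both strands. It occurs in windows of 20 of the 23 genes and in 37.4% of all 32851 windows, where a gene may have several. The first number counts genes with a match in any window and the second counts single windows, so for either motif they are not directly comparable. For the sterol response element, only the spelling TCACNCCAC was searched, also on both strands. It occurs in 1 of the 23, Hmgcs1, and in 1.24% of all windows, and does not overlap CCAAT there. Other spellings of the element were not searched, so a window without this match may still hold one. A match describes letters in a window and no binding. Stretches of these windows are printed 5′ to 3′ with matches to either motif, on either strand, in capitals. That of Cyp51 is on the minus strand, chr5:4104698-4104797, and that of Hmgcs1 on the plus strand, chr13:119690201-119690350.
Cyp51: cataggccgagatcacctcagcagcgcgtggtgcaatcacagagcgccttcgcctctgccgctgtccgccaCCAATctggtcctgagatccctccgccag
Hmgcs1: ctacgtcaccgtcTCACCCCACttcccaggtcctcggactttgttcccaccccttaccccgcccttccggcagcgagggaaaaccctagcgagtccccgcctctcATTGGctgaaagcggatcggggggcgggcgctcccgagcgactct

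The lipoxygenases Alox8 and Alox12b, near each other on chromosome 11, also fell. Alox8 (ENSMUSG00000020891, chromosome 11, 69183932 to 69197843), which oxidizes arachidonic acid, lay at 1.95 to 5.81 CPM with a median of 3.52 in WT and 0.647 to 2.17 CPM with a median of 1.01 in KO libraries. The WT library C24 and the KO library C3 met at about 2 CPM and the others were apart, with a log2 fold change of -1.64 (SE 0.265, with adjusted p = 0.0034). Alox12b held 9.61, 14.3 and 17.4 CPM in WT and 5.79, 8.27 and 9.42 CPM in KO, without overlap, and fell with a log2 fold change of -0.85 (SE 0.137, with adjusted p = 0.0031). Aldoc, a glycolytic aldolase that marks astrocytes, was the 1 called gene of 18 tested astrocyte markers. It held 55.1, 86.0 and 98.6 CPM in WT and 34.8, 47.7 and 58.6 CPM in KO, with C24 the lowest WT library, a log2 fold change of -0.84 (SE 0.119, with adjusted p = 0.0016). The histamine receptor Hrh2 fell with a log2 fold change of -0.38 (SE 0.0896, with adjusted p = 0.0254), a call that ended without C5, C6, C15 or C16 (adjusted p up to 0.0667).

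Among the 50 chromatin regulators, 3 were called higher and 0 lower, beside 1.99% and 2.09% of all genes. In this list, 40 were positive and the median was 0.15. Setd2, the methyltransferase of histone H3 lysine 36, lay at 51.9 to 66.0 CPM with a median of 57.4 in WT and 67.3 to 85.6 CPM with a median of 77.5 in KO, apart, with a log2 fold change of 0.43 (SE 0.0703, with adjusted p = 0.0037). Kdm4a, a histone demethylase, had values of 38.6, 44.0 and 51.2 CPM in WT and 51.6, 54.9 and 62.0 CPM in KO and rose with a log2 fold change of 0.37 (SE 0.0628, with adjusted p = 0.0046). Without C24 the list had 13 higher calls, beside 856 over all genes, and without C3, C18 and C19 it had 2, beside 116. Polr2a, the largest subunit of RNA polymerase II, lay at 55.7 to 64.8 CPM with a median of 57.2 in WT and 66.5 to 80.9 CPM with a median of 74.4 in KO, apart (log2 fold change 0.37, SE 0.0546, adjusted p = 0.0020). Of the 96 proteasome and ubiquitin genes, 5 were called higher and 1 lower, beside 1.99% and 2.09% of all genes. The gene called lower was the abundant neuronal hydrolase Uchl1, at 593, 676 and 754 CPM in WT and 379.6, 528 and 617 CPM in KO (log2 fold change -0.35, SE 0.0747, adjusted p = 0.0187), which missed the threshold without C16 (adjusted p = 0.0561), and C4 was its lowest KO library.

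Other genes with small p were each called in all 31 alternatives and had no overlap between groups. Zkscan8, a zinc finger protein, rose from a median of 12.9 to 18.1 CPM (log2 fold change 0.52, adjusted p = 0.0010). Strip2, a subunit of the STRIPAK phosphatase complex, rose from 14.6 to 25.3 CPM (log2 fold change 0.76, adjusted p = 0.0029), Atl3, which shapes endoplasmic reticulum tubules, from 25.1 to 34.5 CPM (log2 fold change 0.50, adjusted p = 0.0016), and Arel1, a ubiquitin ligase, from 175.8 to 219.4 CPM (log2 fold change 0.31, adjusted p = 0.0029). Wdr81, an endosomal protein, rose from 20.4 to 28.4 CPM (log2 fold change 0.47, adjusted p = 0.0016). Atmin, a partner of the ATM kinase, fell from a median of 145.1 to 102.5 CPM (log2 fold change -0.49, adjusted p = 3.82e-04). Cd99l2, a membrane glycoprotein whose gene lies on the X chromosome within 5 Mb of Fmr1, was the clearest of 3 genes called higher among 35 tested in that stretch. It lay at 86.2 to 99.4 CPM with a median of 94.1 in WT and 108 to 122 CPM with a median of 113 in KO, with a log2 fold change of 0.30 (SE 0.0455, with adjusted p = 0.0025). The neighbours as a group had a median of -0.02, with 17 of 35 positive. Their 3 calls stand beside 1.99% called higher over all genes tested.

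The lists of cytosolic ribosomal proteins, nuclear-encoded oxidative phosphorylation and mitochondrially encoded genes had no called members in the main fit. Of 84 genes for cytosolic ribosomal proteins, 80 were negative, with a median of -0.17, and edgeR, DESeq2 and limma-voom each called 0, with 18 at an unadjusted p under 0.05 in edgeR. Nuclear-encoded genes of oxidative phosphorylation were negative in 71 of 81 with a median of -0.15, again with 0 called by each of the 3 tools and 10 at an unadjusted p under 0.05. The 13 mitochondrially encoded genes were positive in 11 with a median of 0.08, 0 called by any of the 3 tools and 0 at an unadjusted p under 0.05. The KO library C4 moved with these lists: without it the medians were -0.11, -0.10 and -0.08, so that of the mitochondrially encoded genes changed sign. Without C24 the median of the mitochondrially encoded genes was 0.22, with 12 of 13 positive. In the fit without C3, C18, C19 and C24, 1 nuclear-encoded oxidative phosphorylation gene was called lower, beside 454 over all genes.

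Markers of other cells were compared in the same fit, in which 4.09% of all genes tested were called. The PV interneuron list was low in KO, with 18 of 20 negative and a median of -0.73, and edgeR, DESeq2 and limma-voom called 0, with 1 at an unadjusted p under 0.05 in edgeR. Its summed level ran from 1315 to 2876 CPM in KO and from 982.3 to 3682 CPM in WT, with C3, C18 and C19 at the top. Without those 3 libraries the median was 0.03, 12 of 20 were positive and 0 were called. Without C3, C18, C19 and C24, 3 were called lower, beside 454 over all genes, with a median of 0.00 and 10 of 20 positive. Without C24 alone, 1 was called lower, beside 778 over all genes. Oligodendrocyte markers were negative in 12 of 17 with a summed level of 401.3 to 623.8 CPM in KO and 493 to 739.2 CPM in WT, 1 called. Astrocyte markers were negative in 13 of 18, 1 called, with sums of 1266 to 1625 CPM in KO and 1124 to 1382 CPM in WT. Vascular and fibroblast markers were negative in 10 of 15, 1 called, with sums of 30.6 to 35.2 CPM in KO and 30.6 to 52.5 CPM in WT. Striatal markers were positive in 11 of 14 with a median of 0.20, 0 called by the 3 tools and 0 at an unadjusted p under 0.05. No marker of these lists was at 0 in all 15 libraries. Excitatory markers had a median of 0.03, with 11 of 20 positive. The hippocampal and claustrum list, given with the sarcomere genes above, was low in KO with a median of -0.49. With the PV, glial or striatal marker score as a covariate, 767, 658 and 1305 genes were called, of which 620, 531 and 640 were among the 641. No fit used the hippocampal and claustrum score. Of the 76 genes named with their tests, 57 were called without C3, C18 and C19. Beside those already given, Ank2 (0.0685), Akap6 (0.0578), Adcy9 (0.0924), Ddit3 (0.0615), Ccne2 (0.0521), Uchl1 (0.0556), Hrh2 (0.0559), Mbp (0.0525) and Tnnt1 (0.124) had the adjusted p in parentheses there. Without C16 and C23, 37 of the 74 named genes that were called no longer passed, with adjusted p up to 0.186. Among these were 13 genes whose call no single library ended: Jun (0.0501), Ramp2 (0.0506), Pcdhgb6 (0.0564), Sphkap (0.0598), Kcnmb4 (0.0661), Rgs16 (0.0686), Tpm1 (0.0686), Rptor (0.0735), Fbxw11 (0.0776), Pclo (0.0787), Btrc (0.0862), Herc1 (0.0917) and Cdkn1b (0.0960).

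Longer transcripts were more often higher in KO. Genes tested were placed in 5 classes of equal size by their summed exon length on the annotation. Of the shortest class, up to 2280 bases, 0.415% were called higher and 2.36% lower. In the next classes the share called higher was 0.797%, 1.88% and 2.71%, and in the longest class, from 7417 bases, it was 4.11%. The share called lower was 2.46%, 2.26% and 1.85% in the middle classes and 1.53% in the longest. Median log2 fold changes went from -0.09 in the shortest to 0.07 in the longest class. The median length was 6733 bases among genes called higher, 3806.5 among those called lower and 4251.5 among all tested. A slope of each library's centred log2 CPM on log2 length ran from -0.01 to 0.16 in KO, with C4 the highest, and from -0.08 to 0.05 in WT. Without C4 the medians of the shortest and longest class were -0.06 and 0.04, and the shares called higher 0.38% and 4.02%.

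**Figure D3:**
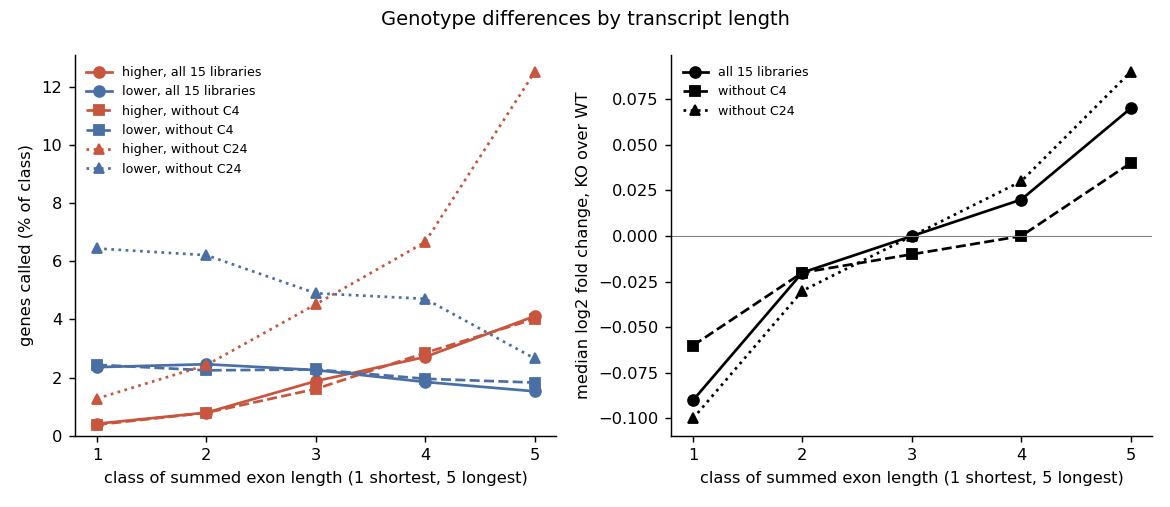
Left, the share of genes called higher (red) and lower (blue) in 5 classes of summed exon length; right, the median log2 fold change of each class. Circles are all 15 libraries, squares the fit without C4 and triangles the fit without C24; in each, the share called higher grows and the median rises from the shortest to the longest class.

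The same genotype comparison exists in Camk2a libraries of primary visual cortex (V1), 14 libraries mostly of the same animals, and in PV libraries of S1, 20 libraries of other animals. The difference of the genotype effect between S1 and V1 was called for 0 of 16360 genes, 0%, by edgeR, with 608 at an unadjusted p under 0.05 and a smallest adjusted p of 0.677. The smallest p belonged to Zc3hav1, an antiviral RNA-binding protein, with a log2 fold change of -0.57 in S1 and 0.89 in V1. Smoc2, also among the smallest, stood at -0.85 and 0.04. DESeq2 called 1 gene. Log2 fold changes in S1 and V1 were -0.79 and -0.82 for Ccnd2, -1.38 and -1.40 for Ccn4 and 0.77 and 0.81 for Sphkap. The widest gap among the named genes was that of Tns1, at -1.44 and -0.68. Cdk18 stood at -1.02 and -0.58, Jun at -0.64 and -0.27, and Cacnb4, with opposite signs, at 0.30 and -0.07. The areas share animals. A p that misses the threshold does not show that the areas act alike.

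Between Camk2a and PV cells of S1, 143 of 17023 genes, 0.84%, differed in their genotype effect, 83 with a higher and 60 with a lower value in Camk2a cells. Of these, 109 were among the 641 called in the Camk2a libraries, and both tests use those same libraries. Fmr1 itself differed, with a log2 fold change of -3.17 in Camk2a and -2.20 in PV libraries within this joint fit (difference -0.97, adjusted p = 1.19e-05). Ccn4 stood at -1.35 and -0.20 (adjusted p = 1.19e-05), Pkp4 at -0.52 and -0.06 (adjusted p = 0.0013) and Sphkap at 0.77 and -0.25 (adjusted p = 0.0054). Serpine2 stood at -0.56 and 0.12 (adjusted p = 0.0101), and Ramp2, an accessory subunit of the calcitonin-like receptor, at -0.84 and 0.21 (adjusted p = 0.0101). The ubiquitin ligase subunits Fbxw11 and Btrc, which mark beta-catenin for destruction, had a higher genotype effect in Camk2a cells, Fbxw11 at 0.33 and -0.05 (adjusted p = 0.0038) and Btrc at 0.28 and -0.02 (adjusted p = 0.0101). Cdh2, N-cadherin, which binds beta-catenin, stood at 0.28 and -0.15 (adjusted p = 0.0101), and Whrn, a scaffold with PDZ domains, at 0.16 and -0.27 (adjusted p = 0.0048).

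In S1 Camk2a libraries alone, Fbxw11 lay at 125, 129.8 and 144 CPM in WT and 135, 166 and 182 CPM in KO (log2 fold change 0.33, SE 0.0634, adjusted p = 0.0092) and Btrc at 77.2, 83.3 and 93.7 CPM in WT and 92.8, 103 and 109 CPM in KO (log2 fold change 0.28, SE 0.0566, adjusted p = 0.0123), each with C14 the lowest KO library. Ramp2 held 1.69, 2.34 and 3.62 CPM in WT and 1.05, 1.34 and 1.73 CPM in KO (log2 fold change -0.82, SE 0.156, adjusted p = 0.0092), with C15 of WT and C3 of KO meeting at about 1.7 CPM. Its call was missed in the fit of all 4 Camk2a groups (adjusted p = 0.0853), and 33.4% of its exonic bases overlap Vps25 on the same strand. Cdh2 stood at a log2 fold change of 0.28 (adjusted p = 0.0367), a call that ended without C2, C4, C5, C6, C7, C14, C15, C16, C18, C19 or C23 (adjusted p up to 0.0903), and Whrn did not pass (log2 fold change 0.16, adjusted p = 0.180). The difference between cell classes was called for 93 genes without C3, C18 and C19, of which 68 were among the 143, and for 313 without C24.

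**Figure D4:**
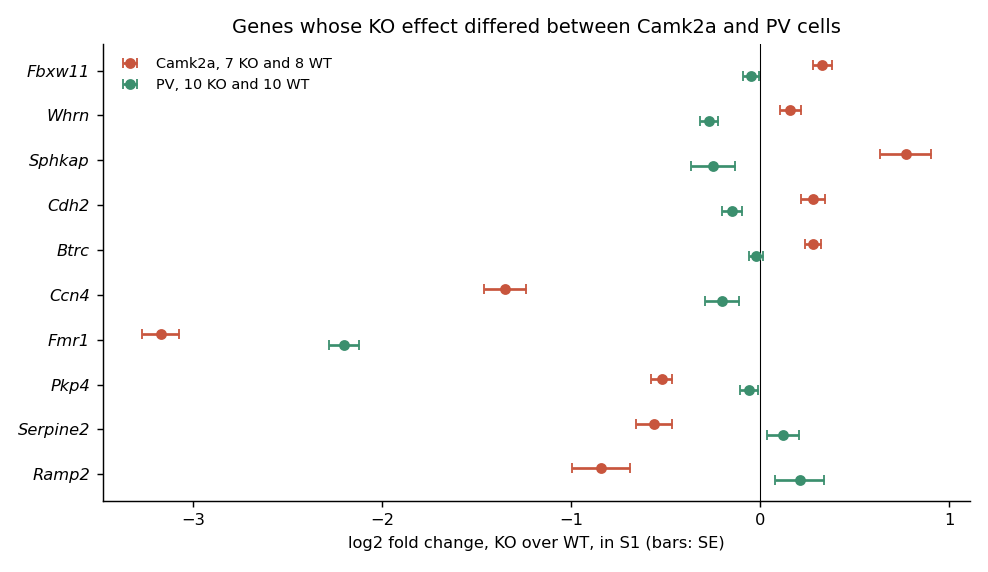
Log2 fold change, KO over WT, in S1 with its SE for the 10 genes named by the smallest p of the difference between Camk2a (red, 7 KO and 8 WT libraries) and PV cells (green, 10 KO and 10 WT libraries). The upper 5 genes lie further right in Camk2a cells and the lower 5 further left, and Fmr1 falls in both.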

How the data were processed

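Gene-level estimated counts of 15 RiboTag libraries were used as the authors deposited them. The submitters' processing notes name STAR, Salmon, limma and mm10, with versions not given in the sources used here. Per the labels' protocols, libraries were made with the Ovation RNA-Seq System V2 and sequenced as paired ends, with a minimum RNA integrity score of 7. Of the values, 71.1% were not whole, and they were rounded.

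Genes were filtered with filterByExpr, scaled by TMM and tested with edgeR 4.0.16 (quasi-likelihood, robust) on R 4.3.3, with labelled sex as covariate and Benjamini-Hochberg adjustment over 15691 genes, and the SE is the log2 fold change over the square root of F. Scripts were tested on simulated data. DESeq2 1.42.0, limma-voom (limma 3.58.1), other scalings and covariates, and left-out libraries were the alternatives. GENCODE M21 named 17614 of 17634 IDs. Columns carry animal codes, and KO and WT are different animals, so they were not paired. The smallest chi-square per degree of freedom between libraries of a group was 9.36, so no library was a copy.

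The gene lists, members and rules were chosen with earlier results of these data known. Named genes are Fmr1 and Rapgef4, the 12 called genes of largest fold change in each direction with a mean of at least 5 CPM, the 10 of smallest p in each direction and up to 3 called members per list and direction, from which the text leaves some out, a few of them because they are not reported here. For the differences between classes or areas, they are the 5 called genes of smallest p in each direction, or the 3 of smallest p where none was called. Single marker genes, Hmgcs1 and other genes named because they did not pass were chosen after their values were seen.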

Additional observations from a re-analysis of the deposited data

Results flagged for a closer look

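Within each genotype, the CPM of 76 named genes was searched for a library far from the rest, by the gap to its neighbour relative to the group's range. Of 152 groups, 11 held such a library. The cutoffs are meant to flag about 1 in 20 independent groups of normal values. These groups share the same libraries and their genes were chosen mostly by their tests, so that rate is no yardstick for the count. The WT library C24 was far below the others of its genotype for Bcam (1.81 CPM, nearest 3.27 CPM) and Ddit3 (8.79 CPM, nearest 13.4 CPM). The KO library C14 was far below the others of its genotype for Fbxw11 (135 CPM, nearest 162 CPM). The KO library C4 was far below the others of its genotype for Uchl1 (379.6 CPM, nearest 523 CPM). The WT library C24 was far above the others of its genotype for Abi3bp (21.8 CPM, nearest 11.9 CPM) and Mbp (280 CPM, nearest 206 CPM). The KO library C3 was far above the others of its genotype for Alox8 (2.17 CPM, nearest 1.27 CPM) and Tpm2 (4.47 CPM, nearest 2.59 CPM). The KO library C4 was far above the others of its genotype for Akap6 (381 CPM, nearest 324 CPM). The KO library C7 was far above the others of its genotype for Kdm4a (62.0 CPM, nearest 55.5 CPM) and Wdr81 (32.8 CPM, nearest 28.9 CPM).

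Over all genes tested, 143 of 17023, or 0.84%, differed in their genotype effect between Camk2a and PV cells of S1. Named genes were chosen mostly by their tests in these Camk2a libraries, and some by this difference itself. A high count among them is therefore built into the choice. For 29 of the named genes the genotype effect in S1 differed between Camk2a and PV cells by the interaction test of edgeR (adjusted p under 0.05 over all genes tested). The log2 fold change was lower in Camk2a than in PV cells for 13 of them. The difference was -0.97 for Fmr1 (adjusted p = 1.19e-05, PV value -2.20), -1.15 for Ccn4 (adjusted p = 1.19e-05, PV value -0.20), -0.46 for Pkp4 (adjusted p = 0.0013, PV value -0.06) and -1.05 for Ramp2 (adjusted p = 0.0101, PV value 0.21). It was -0.68 for Serpine2 (adjusted p = 0.0101, PV value 0.12), -0.92 for Tns1 (adjusted p = 0.0127, PV value -0.51), -0.67 for Aldoc (adjusted p = 0.0155, PV value -0.16) and -1.35 for Alox8 (adjusted p = 0.0155, PV value -0.25). It was -1.37 for Bcam (adjusted p = 0.0280, PV value -0.03), -0.77 for Nedd9 (adjusted p = 0.0363, PV value -0.14), -1.46 for Tnnc1 (adjusted p = 0.0363, PV value 0.05) and -0.64 for Cdk18 (adjusted p = 0.0390, PV value -0.39). It was -1.18 for Tpm2 (adjusted p = 0.0478, PV value -0.12). The log2 fold change was higher in Camk2a than in PV cells for 16 of them. The difference was 0.38 for Fbxw11 (adjusted p = 0.0038, PV value -0.05), 0.43 for Whrn (adjusted p = 0.0048, PV value -0.27), 1.02 for Sphkap (adjusted p = 0.0054, PV value -0.25) and 0.44 for Cdh2 (adjusted p = 0.0101, PV value -0.15). It was 0.31 for Btrc (adjusted p = 0.0101, PV value -0.02), 0.80 for Strip2 (adjusted p = 0.0156, PV value -0.02), 0.35 for Rptor (adjusted p = 0.0219, PV value -0.03) and 0.48 for Ank3 (adjusted p = 0.0253, PV value 0.10). It was 0.42 for Atl3 (adjusted p = 0.0260, PV value 0.09), 0.65 for Pcdhb13 (adjusted p = 0.0333, PV value -0.02), 0.38 for Setd2 (adjusted p = 0.0338, PV value 0.05) and 0.39 for Wdr81 (adjusted p = 0.0338, PV value 0.08). It was 0.48 for Zkscan8 (adjusted p = 0.0363, PV value 0.03), 0.73 for Abca1 (adjusted p = 0.0390, PV value -0.15), 0.51 for Tenm1 (adjusted p = 0.0444, PV value 0.01) and 0.58 for Kcns2 (adjusted p = 0.0478, PV value -0.11).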

How the results depend on the processing

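No paired analysis of KO against WT was possible because the animal codes mark different animals. For the difference between S1 and V1, a replicate block with the animal as a fixed effect gave 0 called genes and one with the animal as a random effect in limma-voom gave 1, as did DESeq2. The 641 called genes of KO against WT kept their direction in every alternative run. Their number became 1450 with DESeq2, 990 without the sex term, 1305 with the striatal marker score as a covariate and 299 without C3, C18 and C19. Leaving out 1 library gave 253 to 1634 genes. Alternatives added after seeing the data gave 103 genes without C16 and C23, whose sex label does not match, all of them among the 641, 1725 without C4 and C24, and 810 without C3, C18, C19 and C24, 472 of them among the 641. At an adjusted p under 0.01 there were 127 genes and under 0.1 there were 1441. The other alternatives, which changed scaling, filter, rounding, sex by Y-linked genes, glial or PV score, or tool (limma-voom), gave 617 to 783 genes, and the fit of all 4 Camk2a groups gave 837. The difference between cell classes was called for 318 genes by DESeq2, 313 without C24 and, in a fit added after seeing the data, 93 without C3, C18 and C19. The causes of these changes were not tested. Over 76 named genes and 31 alternatives, 2136 of 2356 combinations kept their side of the threshold, 212 lost a call and 8 gained one, with 0 changes of sign. With 7 and 8 animals, and libraries of unequal makeup, effects near the threshold change side with single libraries.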
